A study of Mus musculus with 3 samples.

Results

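The genes of Wnt ligands, Frizzled receptors and the secreted inhibitors of the Sfrp and Dkk families were followed in mouse embryonic fibroblasts (MEFs) and in a library labelled as embryonic stem cells (ESCs). They were chosen by symbol alone, as every gene whose identifier maps to a Wnt, Fzd, Sfrp or Dkk symbol with a number. This gave 37 of the 29267 genes in the tables, namely 19 Wnt, 10 Fzd, 4 Sfrp and 4 Dkk genes. RNA-seq was analysed for 3 libraries, each from 1 sample. The OG2 MEFs came from a strain with an Oct4-GFP reporter transgene and the ICR MEFs from ICR mice, and each was taken at passages 3 to 5. The third sample was the R1 ESC line, 1 established line at passage 30 that is labelled naive. The study uses MEFs as the starting cells of reprogramming to pluripotency and ESCs as the reference for its end point, and its day 6 samples were not analysed here.

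Wnt proteins are secreted, lipid-modified ligands that bind Frizzled receptors, often together with the co-receptors Lrp5 and Lrp6. In the canonical branch, binding stops the breakdown of beta-catenin, which then acts with TCF/LEF factors on target genes. Sfrp proteins resemble the ligand-binding part of Frizzled and can bind Wnts outside the cell, whereas several Dkk proteins act on the Lrp co-receptors. Canonical Wnt signalling supports self-renewal of mouse ESCs in culture, and fibroblasts are a known source of Wnt5a and of several inhibitors.

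The summed expected counts, which are estimated reads per gene, reached 5149312 for OG2 MEFs and 4590619 for ICR MEFs, with 1717838 for the library labelled ESC. A floor of 3 counts was 0.583, 0.654 and 1.75 CPM (counts scaled to a common library total) in these libraries. Of 12 fibroblast marker genes all were detected in every library, with a summed CPM of 29091 and 31288 in MEFs and 3052 in the library labelled ESC. In the latter 10 of the 12 were lower by at least 1 log2 unit. S100a4 was higher there, at 1184 CPM against 619 and 779 in OG2 and ICR MEFs. Of 13 pluripotency genes 6 had a count in the library labelled ESC, including Pou5f1 with 71 and Nanog with 51.14. The other 7, among them Zfp42, Esrrb and Dppa5a, were at 0 there, so the library went against its label for these genes. The summed CPM of all 13 was 12.1 and 18.6 in MEFs and 123 in the library labelled ESC. Klf2 went the other way, with 63, 91 and 2 counts, and made up 11.2 and 17.6 CPM of the MEF sums. The summed CPM of 10 stratified epithelium genes was 26.8, 55.1 and 378 in the order OG2, ICR and ESC, with Krt14 at 2, 8 and 414.44 counts. Krt14 alone made up 297 of the 378 CPM, and 6 of the 10, among them Krt5 and Trp63, were at 0 in the library labelled ESC. The summed CPM of 7 simple epithelium genes was 29.5, 30.2 and 234. Krt8 and Krt19 made up 127 and 78.9 of the 234 CPM. Cdh1 had 0, 0 and 2 counts, and Cldn4 went the other way, with 2, 2 and 0. The part of other cell types in the differences below was not tested. In bulk RNA, fewer cells of a type and less RNA per cell cannot be told apart.

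Levels of different genes are given as TPM, the deposited value scaled by gene length. Differences of a gene are given on log2(CPM + 1), with CPM scaled by TMM, as the library labelled ESC minus the average over the MEF pair. A count was found for 30 of the 37 genes in at least 1 library. The remaining 7 (Wnt1, Wnt3a, Wnt8a, Wnt8b, Wnt9b, Sfrp5 and Dkk4) had 0 counts in all 3 libraries, which allows up to the floor of 3 counts in each. A level of at least 10 counts was reached by 23 genes in each of the MEF libraries and by 6 in the library labelled ESC. These 6 were Wnt4, Fzd2, Dkk2, Sfrp1, Wnt2 and Fzd8.

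MEFs held most of the transcripts of these families. The summed TPM of all 37 genes was 483 in OG2 MEFs and 543 for ICR MEFs, compared with 69.7 in the library labelled ESC. For the Fzd genes it was 219, 219 and 18.4, and for the Wnt genes 112, 101 and 29.6. The Dkk genes summed to 112, 135 and 12 TPM. Both MEF samples lay above the library labelled ESC in each family. The Sfrp genes summed to 40.8, 88.0 and 9.73 TPM, so the MEF samples were further from each other there than in the other families. TPM and CPM gave different ratios of MEFs to the library labelled ESC, since these were 7.36 by summed TPM and 2.66 by summed CPM. By summed CPM the ratio was 1.39 for the Wnt, 4.46 for the Fzd, 1.58 for the Sfrp and 3.21 for the Dkk genes, where summed TPM gave 3.60, 11.9, 6.62 and 10.3. From the CPM to the TPM scale, the log2 difference shifted by a median of -1.11 over the 12726 genes with 10 or more counts in a library.

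**Figure D1:**
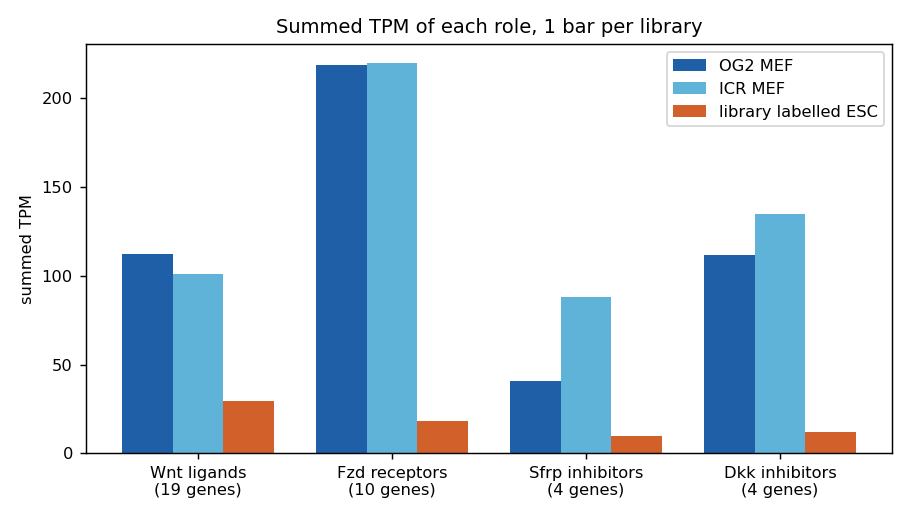
Summed TPM (vertical axis) of the 19 Wnt, 10 Fzd, 4 Sfrp and 4 Dkk genes, with 1 bar per library and no error bars because each bar is a single library. The Fzd bars of both MEF samples stand at 219, and the bars of the library labelled ESC stay at or below 29.6.

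Relative to both MEF samples, 14 of the 37 genes lay 1 log2 unit or more below in the library labelled ESC, which is 46.7% of the 30 with a count, against 25.9% of all 17810 genes with a count. At least 1 log2 unit higher were 4 genes, Wnt2, Wnt4, Wnt7a and Wnt7b, or 13.3% against 21.9% of all genes. The other 12 passed in neither direction. The median log2 difference was -1.0 over the 30 genes and -0.13 over all genes with a count. In edgeR's quasi-likelihood F-test (Benjamini-Hochberg), 13 of the 23 tested genes fell and 3 rose at an adjusted p under 0.05, and 7 did not pass. These are 56.5% and 13.0% of the tested genes, beside 36.0% and 31.4% of all 12663 genes tested. A gene could be tested through its level in MEFs alone, and for genes with 0 in the library labelled ESC the fitted fold is not given. DESeq2's Wald test gave an adjusted p for 25 of the genes and called 9 of them lower and 1, Wnt4, higher. The share it called over all genes was not calculated, so these counts have no base beside them. The edgeR test had 1 residual degree of freedom, its spread came from the MEF pair alone, and the spread among ESC samples is unknown. The spread of each gene was moderated toward a trend over all genes tested, so its p-value and SE also rest on other genes.

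**Figure D2:**
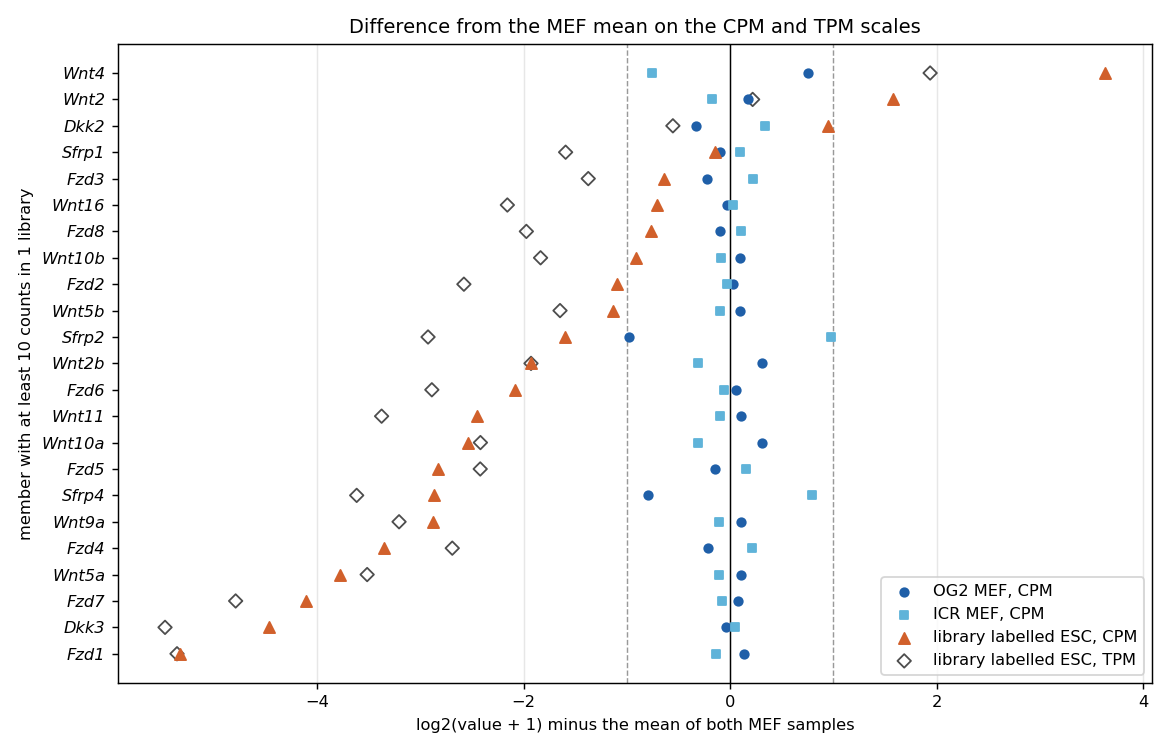
Log2 difference of the library labelled ESC from the mean of both MEF samples (horizontal axis), on the CPM scale and on the TPM scale. Shown are the 23 genes whose count reached 10 in any library. Of these genes 14 lie at least 1 log2 unit below both MEF samples and 2, Wnt2 and Wnt4, at least 1 above them on the CPM scale. Dkk2 changes sign between the scales.

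Among the receptors, Fzd1, Fzd2 and Fzd7 carried 83.2% of the Fzd TPM in OG2 MEFs, 80.5% for ICR MEFs, and also 74.0% in the library labelled ESC. Of the 8 Fzd genes tested 6 fell (75.0%, beside 36.0% of all genes tested), and Fzd3 and Fzd8 did not pass. Fzd2 (ENSMUSG00000050288, chromosome 11 from 102604396 to 102608058 on the plus strand), the most abundant receptor, had 78.64, 81.17 and 12.55 TPM in OG2 MEFs, ICR MEFs and that labelled ESC, from 771, 681 and 87 counts. It was lower in the library labelled ESC by a ratio of MEF to ESC counts per depth of 2.15 (exact 95% counting interval 1.73 to 2.71). Its share of the Fzd TPM was nevertheless 68.3% there, against 36.0% and 37.0% in MEFs. The fitted log2 fold change was -0.93 ± 0.18 (SE), with an adjusted p of 0.00161 in edgeR's quasi-likelihood F-test (Benjamini-Hochberg). All counting intervals cover counting error only.

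Fzd1 (ENSMUSG00000044674, chromosome 5 from 4753839 to 4758035 on the minus strand) had 53.25, 47.25 and 0.25 TPM, from 597, 453 and 2 counts. Fzd7 (ENSMUSG00000041075, chromosome 1 from 59482424 to 59486955 on the plus strand), a receptor used in several stem cell types, had 49.96, 48.03 and 0.81 TPM, from 612, 503 and 7 counts. In both genes the MEF samples were close together and the library labelled ESC was far below them. MEFs were higher in counts per depth by 67.8-fold for Fzd1 (interval 18.7 to 560.4) and by 20.6-fold for Fzd7 (9.95 to 51.3). Fitted log2 fold changes were -5.88 ± 0.44 and -4.18 ± 0.31 (SE), with adjusted p-values of 4.51e-06 and 4.52e-06 by edgeR's quasi-likelihood F-test (Benjamini-Hochberg). The start regions of these 2 receptor genes, which both fell, are given for comparison. They are shown from 250 bases before to 50 bases after the RefSeq start on GRCm38.p6, 5′ to 3′ along the gene, with motif matches on either strand in capitals. The first motif searched was GGGCGG, known as the GC box and bound by Sp-family factors. The second was TATAAA, an element found near the start of many tissue-specific genes. The third was CCAAT, an element of many promoters that is bound by the factor NF-Y. The last was CTTTGAT, a core element to which TCF/LEF factors bind.
Fzd1, chr5:4758167-4758466, minus strand: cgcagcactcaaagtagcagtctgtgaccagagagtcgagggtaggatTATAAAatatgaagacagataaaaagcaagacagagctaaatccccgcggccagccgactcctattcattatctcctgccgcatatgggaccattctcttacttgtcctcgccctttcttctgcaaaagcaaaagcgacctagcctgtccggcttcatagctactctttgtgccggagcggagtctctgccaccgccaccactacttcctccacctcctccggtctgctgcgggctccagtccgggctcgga
Fzd7, chr1:59481897-59482196, plus strand: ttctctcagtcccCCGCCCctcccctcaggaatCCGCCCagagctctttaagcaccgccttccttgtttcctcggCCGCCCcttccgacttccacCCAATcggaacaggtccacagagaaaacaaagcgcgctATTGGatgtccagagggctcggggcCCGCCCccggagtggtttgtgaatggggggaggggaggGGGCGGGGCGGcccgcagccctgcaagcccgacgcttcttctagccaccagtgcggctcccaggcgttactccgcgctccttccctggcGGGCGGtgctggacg
The Fzd1 window held 1 TATAAA match and no GC box, and the Fzd7 window held 7 GC box and 2 CCAAT matches. The TATAAA match of Fzd1 lay toward the upstream end of its window, away from the RefSeq start. A match is a description of the letters and not of a bound factor.

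The less abundant receptors were Fzd6, a receptor of planar cell polarity, at 13.13, 13.00 and 0.90 TPM, Fzd5 at 4.56, 5.81 and 0.15, and Fzd4, a receptor of vessel growth, at 4.46, 6.63 and 0. All 3 fell, with adjusted p-values of 0.00141, 0.00138 and 0.00228 by edgeR's quasi-likelihood F-test (Benjamini-Hochberg). MEFs were 4.91-fold higher for Fzd6 (interval 2.35 to 12.3) and 11.4-fold for Fzd5 (3.10 to 94.5). Fzd4 had 44 and 56 counts in MEFs and none in the library labelled ESC. Against a floor of 3 counts it was 4.30-fold higher in MEFs, and the lower limit of its counting interval was 3.44. Fzd8 had 93, 99 and 14 counts and Fzd3 had 29, 38 and 5, and neither passed the test, with adjusted p-values of 0.152 and 0.430 (edgeR). Fzd9 had 8, 1 and 3 counts and Fzd10 had 2, 2 and 1, and both were too low to be tested.

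Of the 10 Wnt genes tested 5 fell, 2 rose and 3 did not pass. The shares that fell and rose were 50% and 20%, beside 36.0% and 31.4% of all genes tested. Wnt5a (ENSMUSG00000021994, chromosome 14 from 28504750 to 28527448 on the plus strand), a ligand of mostly beta-catenin-independent signalling, was the most abundant ligand in MEFs. It had 44.93, 42.46 and 2.91 TPM from 555, 436.69 and 8 counts, and was 16.0-fold higher in MEFs (interval 8.09 to 37.2). Its log2 fold change was -3.82 ± 0.32 (SE), with an adjusted p of 9.06e-06 by edgeR's quasi-likelihood F-test (Benjamini-Hochberg). Wnt5a made up 40.0% and 42.1% of the Wnt TPM in MEFs and 9.83% in the library labelled ESC. The length that RSEM used for it was 4569 and 4453 bases in MEFs but 1538 in the library labelled ESC, which enters its TPM there.

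Wnt9a had 11.66, 10.71 and 0.32 TPM, and Wnt11, a ligand of cell movement in development, had 13.43, 11.79 and 0.31. Wnt10a had 5.43, 3.44 and 0 TPM, and Wnt2b had 4.19, 2.69 and 0.15. In each of these 4 genes both MEF samples were above the library labelled ESC, which held 2 counts of Wnt9a, 1 each of Wnt11 and Wnt2b and 0 of Wnt10a. The adjusted p-values by edgeR's quasi-likelihood F-test (Benjamini-Hochberg) were 0.00101 for Wnt9a, 0.00809 for Wnt11, 0.0175 for Wnt10a and 0.0462 for Wnt2b. MEFs were 11.9-fold higher for Wnt9a (interval 3.24 to 98.8) and 2.32-fold higher for Wnt10a against the floor, with a lower interval limit of 1.83. For Wnt11 and Wnt2b the ratios were 11.7 (2.06 to 469) and 8.0 (1.38 to 321). DESeq2's Wald test did not call Wnt11, Wnt10a and Wnt2b. Wnt16 had 13.37, 14.35 and 2.33 TPM, Wnt10b 6.72, 6.07 and 1.07, and Wnt5b 3.12, 2.78 and 0.26. These 3 ligands did not pass, with edgeR adjusted p-values of 0.280, 0.239 and 0.248.

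Wnt4 (ENSMUSG00000036856, chromosome 4 from 137277489 to 137299726 on the plus strand), a ligand of kidney and reproductive tract development, rose in the library labelled ESC. Its counts were 53.62 in OG2 MEFs, 14 for ICR MEFs, but 106.6 in the library labelled ESC, or 4.75, 1.45 and 13.36 TPM. The library labelled ESC was above both MEF samples, and OG2 MEFs were above ICR MEFs. The ratio of ESC to summed MEF counts per depth was 12.2 (interval 8.91 to 16.8, for counting error only). On log2(CPM + 1) the difference was 3.63, and it was 4.39 without the OG2 and 2.88 without the ICR sample. The log2 fold change was 3.79 ± 0.48 (SE), with an adjusted p of 0.00011 by edgeR's quasi-likelihood F-test (Benjamini-Hochberg). Wnt4 took 45.2% of the Wnt TPM in the library labelled ESC, where MEFs had 4.23% and 1.44%. Its start region is shown as that of the ligand with the largest rise in log2 fold change among those tested, from the same RefSeq table and with the same marking.
Wnt4, chr4:137277385-137277684, plus strand: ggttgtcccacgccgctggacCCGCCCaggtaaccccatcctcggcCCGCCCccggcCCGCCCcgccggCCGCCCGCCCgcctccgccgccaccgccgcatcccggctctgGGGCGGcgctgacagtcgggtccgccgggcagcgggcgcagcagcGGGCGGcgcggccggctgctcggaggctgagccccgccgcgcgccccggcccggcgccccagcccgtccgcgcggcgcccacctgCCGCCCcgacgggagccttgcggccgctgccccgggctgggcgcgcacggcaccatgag
This window was 84.3% G and C, with 8 GC box matches and none of the other 3 motifs.

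Wnt2, a ligand of lung and placental development, also rose, with 21, 14 and 16 counts. At the lower depth of the library labelled ESC this was 3.54 times the MEF level (interval 1.83 to 6.57), with a log2 fold change of 1.99 ± 0.57 (SE) and an adjusted p of 0.0123 by edgeR's quasi-likelihood F-test (Benjamini-Hochberg). On the TPM scale the values were 3.59, 2.79 and 3.85, which lie close together, and DESeq2 did not call Wnt2. Wnt7a, with 1, 0 and 7 counts, and Wnt7b, with 1, 0 and 2, were higher by the 1 log2 unit threshold but too low to be tested. The gene length used by RSEM for Wnt7a was 3172 in OG2 MEFs, 1237 for ICR MEFs, but 895 bases in the library labelled ESC, which enters its 4.72 TPM there. Wnt6 had 3, 5 and 0 counts and Wnt3 had 0, 1 and 0.

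**Figure D3:**
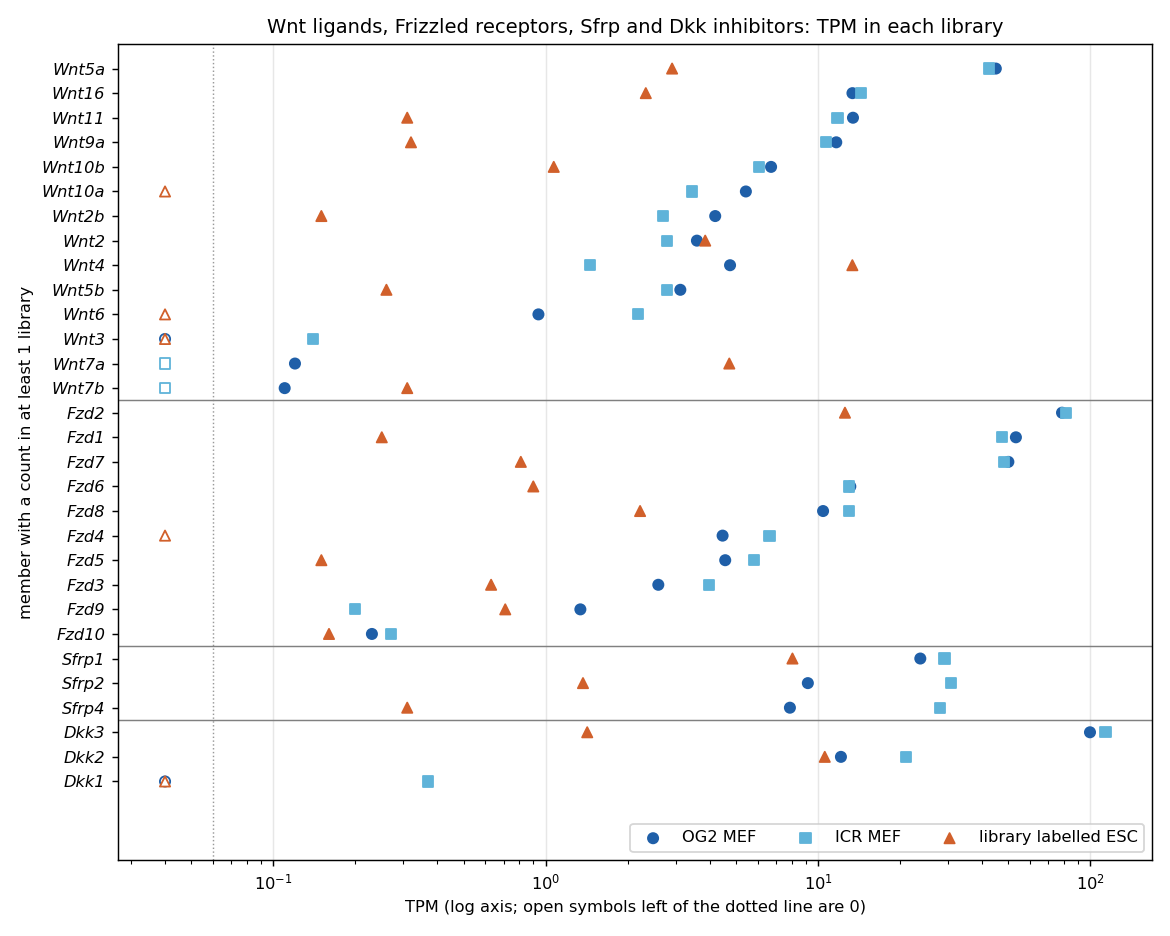
TPM on a log axis (horizontal) of each of the 30 genes with a count, grouped by family, with 1 symbol per library and open symbols for a value of 0. For most genes both MEF symbols lie right of the library labelled ESC, while for Wnt4, Wnt2, Wnt7a and Wnt7b that library lies to the right.

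In order of mean MEF TPM, Dkk3 led with 106.6, followed by Fzd2 with 79.9, Fzd1 with 50.3, Fzd7 with 49.0, Wnt5a with 43.7 and Sfrp1 with 26.4. Of the 29 neighbouring pairs in this order 22 overlapped in the values of their MEF samples, so that Fzd1 and Fzd7 were not separated. In the library labelled ESC the order began with Wnt4, Fzd2, Dkk2 and Sfrp1, at 13.36, 12.55, 10.58 and 8.05 TPM. The counting intervals of these neighbours, scaled to TPM, overlapped, running from 11.1 to 16.1, from 10.2 to 15.5, from 8.43 to 13.3 and from 6.34 to 10.2. These 4 genes made up 63.9% of the TPM of all 37 there, and 24.7% and 24.5% in MEFs.

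Dkk3 (ENSMUSG00000030772, chromosome 7 from 112116017 to 112159057 on the minus strand), the most divergent Dkk protein, fell. It had 99.62, 113.51 and 1.42 TPM from 891, 869 and 9 counts, and was 25.2-fold higher in MEFs (interval 13.3 to 55.3). The log2 fold change was -4.48 ± 0.29 (SE), with an adjusted p of 1.72e-06 by edgeR's quasi-likelihood F-test (Benjamini-Hochberg). Dkk2 (ENSMUSG00000028031, chromosome 3 from 132085292 to 132180304 on the plus strand), a ligand of Lrp co-receptors, had 120, 178 and 74 counts and was higher in the library labelled ESC by 1.92 times in counts per depth (interval 1.47 to 2.49). It passed edgeR's quasi-likelihood F-test with a log2 fold change of 1.10 ± 0.30 (SE) and a Benjamini-Hochberg adjusted p of 0.0100, but not the 1 log2 unit threshold against both MEF samples or DESeq2. On the TPM scale Dkk2 was lower, at 12.13, 21.03 and 10.58, a log2 difference of -0.55 where it was 0.94 on the CPM scale. Dkk2 took 10.9%, 15.6% and 88.2% of the Dkk TPM, and Dkk3 took 89.1%, 84.1% and 11.8%. Dkk1, an inhibitor of Lrp5 and Lrp6, had 0, 2 and 0 counts.

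Sfrp1 (ENSMUSG00000031548, chromosome 8 from 23411502 to 23449632 on the plus strand) had 280, 294 and 67 counts, a ratio of MEF to ESC counts per depth of 1.11 (interval 0.858 to 1.45). It did not pass, with a log2 fold change of 0.02 ± 0.21 (SE) and an adjusted p of 0.930 by edgeR's quasi-likelihood F-test (Benjamini-Hochberg), and the sign of its difference depended on the scaling. Its TPM was 23.73, 29.14 and 8.05. Sfrp4 fell, with 35, 107 and 1 counts, an 18.3-fold ratio (interval 3.24 to 729) and an adjusted p of 0.0282 by edgeR's quasi-likelihood F-test (Benjamini-Hochberg). DESeq2's Wald test did not call it, with an adjusted p of 0.0555. The log2 difference of Sfrp4 was -2.87, and it was -3.66 without the OG2 and -2.07 without the ICR sample. Sfrp2 had 34, 136 and 5 counts and did not pass, with an adjusted p of 0.138 (edgeR).

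Between the MEF samples, 4 of the 37 genes were at least 1 log2 unit apart, Sfrp2, Sfrp4, Wnt4 and Fzd9. This was 13.3% of the 30 with a count, against 2.76% of all genes with a count. Each strain had 1 library, so strain and sample cannot be told apart and no test was made. ICR over OG2 counts per depth were 4.36 for Sfrp2 (interval 2.98 to 6.55), 3.33 for Sfrp4 (2.26 to 5.03) and 0.283 for Wnt4 (0.145 to 0.516). Both inhibitors were therefore higher in ICR MEFs and the ligand was higher in OG2 MEFs. Fzd9 rested on 8 and 1 counts. The interval left out a ratio of 1 for 6 of the 23 genes with 10 or more counts in a MEF library, or 26.1%, near the 25.9% of all 12185 genes at that depth. The other 3 were Dkk2 at 1.62 (1.28 to 2.06), Fzd1 at 0.827 (0.730 to 0.936) and Wnt5a at 0.858 (0.755 to 0.975). RSEM used a length of 1496 bases for Sfrp2 in OG2 MEFs and 2003 in the other libraries. The start region of Sfrp2 (ENSMUSG00000027996, chromosome 3 from 83766321 to 83774316 on the plus strand), the gene furthest from a ratio of 1 among those with an interval above it, is shown as above.
Sfrp2, chr3:83766071-83766370, plus strand: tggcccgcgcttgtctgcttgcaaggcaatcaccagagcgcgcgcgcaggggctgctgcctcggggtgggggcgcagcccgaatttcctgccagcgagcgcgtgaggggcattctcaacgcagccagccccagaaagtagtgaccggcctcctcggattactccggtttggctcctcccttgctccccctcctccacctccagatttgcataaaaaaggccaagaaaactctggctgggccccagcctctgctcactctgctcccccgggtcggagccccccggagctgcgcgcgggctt
None of the 4 motifs matched in this window.

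**Figure D4:**
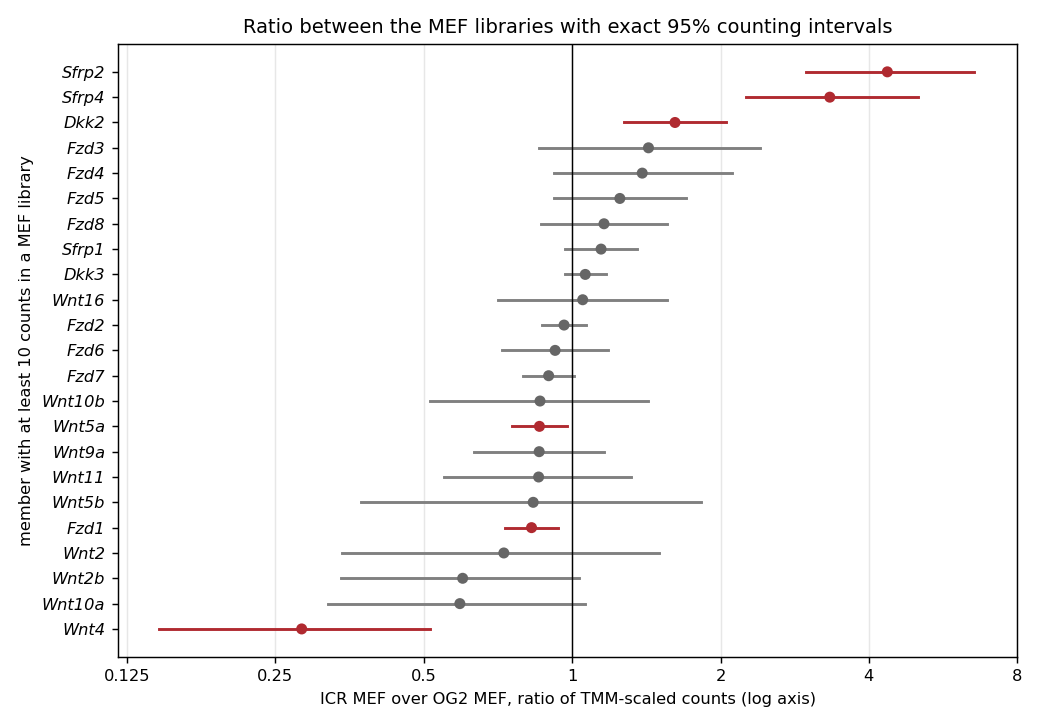
Ratio of ICR to OG2 counts per depth on a log axis for the 23 genes with 10 or more counts in a MEF library, with exact 95% counting intervals as bars. Sfrp2 at 4.36 and Sfrp4 at 3.33 lie furthest above 1, and Wnt4 at 0.283 lies furthest below.

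RefSeq start regions were found for 25 of the 37 genes, in 28 windows of 300 bases. The GC box was present in 21 of the 28 windows (75.0%), against 35.7% of all 32851 windows in the table. The median content of G and C was 68.7%, against 52.7%. TATAAA was found in 14.3% against 13.6%, CCAAT in 39.3% against 37.4%, and CTTTGAT in 2 windows (7.14% against 3.73%), those of Wnt11 and Wnt5b. These shares describe the letters of the windows and were not tested.

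Several Wnt genes lie side by side in the genome, and some of these neighbours were expressed unequally. Wnt10a had 35, 19 and 0 counts and its neighbour Wnt6 had 3, 5 and 0, at a distance of 6.19 kb. By TPM, which allows for their lengths, they had 5.43, 3.44 and 0 against 0.94, 2.18 and 0. Counting intervals scaled to TPM were apart in OG2 MEFs (3.90 to 7.55 and 0.32 to 2.76). In ICR MEFs they overlapped (2.20 to 5.37 and 0.93 to 5.10). Wnt9a had 103, 81 and 2 counts and Wnt3a, 16.2 kb away, had 0 in each library. Wnt10b had 38, 30 and 4 and Wnt1, 11.7 kb away, had 0 in each. Wnt9b and Wnt3, 24.3 kb apart, were both at or near 0. Thus Wnt9a and Wnt10b were expressed in MEFs where their neighbours had 0 counts, and Wnt10a and Wnt6 were separated in OG2 MEFs only.

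Of 53 other genes of the pathway 45 were tested, of which 22 fell, 7 rose and 16 did not pass (edgeR). The shares that fell and rose were 48.9% and 15.6%, beside 36.0% and 31.4% of all genes tested. This list was chosen with earlier results of these data known, so its shares are a description only. The median log2 difference of the list was -0.99, and that of all genes with a count -0.13. Ctnnb1, which encodes beta-catenin, had 487, 540 and 7.92 TPM and fell, with a log2 fold change of -4.26 ± 0.24 (SE) and an adjusted p of 9.20e-07 by edgeR's quasi-likelihood F-test (Benjamini-Hochberg). Wls, the carrier that takes Wnts to the cell surface, fell as well, with 269, 313 and 14.5 TPM. Rspo2, a secreted enhancer of Wnt signalling, had 132, 148 and 0 counts, and Ccn4, a Wnt target gene, had 1311, 1698 and 15. Both fell, as did Ccn5 with 728, 1141 and 68 counts and the co-receptor gene Ryk with 1632, 1357 and 193. Csnk1a1, a kinase that marks beta-catenin for breakdown, did not pass, with 1824, 1588 and 338 counts.

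In the other direction, Ccnd1, which encodes cyclin D1, had 239, 259 and 325 TPM and rose, with a log2 fold change of 2.12 ± 0.17 (SE). Lef1, a transcription factor of the pathway, had 11, 4 and 24.01 counts, and Sostdc1, a secreted antagonist, had 1, 2 and 12. Both rose, with adjusted p-values of 8.09e-04 and 0.00199 by edgeR's quasi-likelihood F-test (Benjamini-Hochberg). Of 8 genes known as targets of canonical Wnt signalling (Axin2, Nkd1, Nkd2, Notum, Sp5, Lef1, Znrf3 and Rnf43) 6 were tested. Lef1 rose (16.7%, beside 31.4% of all genes tested), and the other 5 did not pass. The sum over the 8 depended on the scale, with 13.8, 18.7 and 7.67 by TPM and 26.3, 31.9 and 35.1 by CPM.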

How the data were processed

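Members and pathway lists were chosen with earlier results of these data known. Per the paper, reads were trimmed with TRIMMOMATIC and aligned with bowtie2, and RSEM counted them on Ensembl transcripts. The submitters' processing notes name Bowtie, RSEM and mm10. Some gene identifiers appear too recent for the release the paper names, so the annotation behind the counts is unsure. The deposited tables of each library hold the authors' expected counts from RSEM, which divides shared reads among genes. They also hold the authors' TPM, scaled by gene length, and the authors' FPKM, which was not used. The paper's GC-content normalization was taken as later than these values.

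Expected counts were rounded and scaled by TMM (edgeR 4.0.16, R 4.3.3). For CPM and the ratios per depth the TMM factors came from all genes with a count. For the edgeR test they were calculated again after its filter, so fitted fold changes differ somewhat from these ratios. A pseudocount of 1 was added before log2, which understates changes of low genes. The quasi-likelihood test was two-sided, with filtering by edgeR and Benjamini-Hochberg adjustment over 12663 genes. Each SE was calculated back, as the size of the log2 fold change divided by the square root of the F statistic. A run on simulated data had few changed genes and a shared spread, so it cannot show the error rate in these data. The test used the real libraries as follows. It compared 1 ESC with 2 MEF samples of different strains, so the spread behind the test's p-values includes strain. Ratios have exact Clopper-Pearson intervals at 95%, from the summed MEF counts. Symbols and positions came from GENCODE M21 (GRCm38), and 98.3% of identifiers matched. Wisp1 and Wisp2 were matched as Ccn4 and Ccn5.

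Members with at least 10 counts in 1 library were to be named with values, and pathway genes by highest MEF TPM and largest differences. Alternatives were other pseudocounts, median-of-ratios size factors, TPM, a GC-content correction over 20 bins, DESeq2 1.42.0, count filters and the omission of either MEF sample. The TruSeq kits named in the labels and in the paper differ, and neither marks strand, and exons of 6 members (Fzd5, Fzd6, Sfrp2, Wnt11, Wnt5a and Wnt7b) overlap a gene on the other strand, whose reads cannot be told apart. Other steps used scipy 1.17.1, pandas 2.3.3, numpy 2.4.6 and Python 3.11.15.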

Additional observations from a re-analysis of the deposited data

How the results depend on the processing

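The 4 genes higher in the library labelled ESC by the fold threshold became 1 at a pseudocount of 5 and 2 both with TPM and under a minimum of 10 counts in 1 library. The 14 lower genes ranged from 10 with a pseudocount of 5 to 20 with TPM. These were 33.3% and 66.7% of the 30 with a count, beside 27.3% and 59.0% of all genes with 10 or more counts. The bases of these shares differ. With members also held to 10 or more counts, the 14 lower genes were 60.9% of 23, beside 35.7%. Without each MEF sample in turn the counts were 5 to 5 higher and 15 to 15 lower, which added Fzd9 and Sfrp2 without OG2 and Dkk2 and Wnt10b without ICR. Between OG2 and ICR MEFs, the 4 genes apart became 8 at a pseudocount of 0.1 and 2 at 5, and stayed 4 with TMM factors from the MEF libraries alone, which was chosen after seeing the data. The 3 genes called higher became 1 with DESeq2, and the 13 called lower ranged from 9 with DESeq2 to 14 without a filter on low counts. Dkk2 reversed to -0.55 with TPM. What caused these changes was not tested. The genes with 10 or more counts shifted by a median of -1.11 with TPM, 0.17 with median-of-ratios size factors, 0.14 with the GC-content correction and 0.13 with a pseudocount of 5. Sfrp1, which was not called, was at -0.14, at 0.05 with median-of-ratios size factors and at 0.08 with the GC-content correction. The 22 lower and 7 higher pathway genes became 17 and 6 with DESeq2, of 46 with an adjusted p. Shares over all genes were not calculated for DESeq2. For single genes, 55 values moved by less than the MEF samples' SD, 94 by more and 1, that of Dkk2, was counted as reversed. Among the 94, the sign also changed for Sfrp1, for Dkk1 (-0.24 to 0.16 with the GC-content correction) and for Fzd10 (0.32 to -0.11 with TPM). With either MEF sample left out, edgeR was not run because no residual degree of freedom is left. No paired analysis was possible because there is 1 ESC library and the labels give no shared replicate numbers. In the library labelled ESC 6 of the 37 genes reached 10 counts, and 16 would at its depth with the mean level of MEFs, so that the size of a fall was not resolved for genes with few counts.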
